A study of Mus musculus with 12 samples.

Results

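Livers of vehicle-injected female C57BL/6 mice were compared at 2 times, so that the change measured involves no injected testosterone. C57BL/6 is an inbred laboratory strain. Of 12 arrays, 6 were compared, chosen by their labelled group alone. End mice 1 to 3 were killed directly after treatment, and withdrawn mice 1 to 3 after a further period without injections. Both groups had received 100 µl of sesame oil under the skin 2 times a week for 3 weeks. How long the withdrawal lasted is unresolved: it is 12 weeks by the sample titles but 3 weeks by the description of the design. The other 6 mice had received 0.9 mg of testosterone in the same oil on the same schedule, 3 killed at the end of treatment and 3 after withdrawal. They are separate mice, and they were used to see which changes with time were also present there. Their arrays also entered the fit, the filter on low signals and the choice of probe set. The calls of the 2 treatments therefore share 1 estimate of the spread and are not independent. No genetic change was made in any group. The sources used here do not give the age of the mice, the hour of collection or access to food before it. Older age, collection day, hour and feeding state therefore differ with the groups in unknown ways and cannot be told apart.

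The liver runs on a circadian clock in which the transcription factors CLOCK and ARNTL (BMAL1) switch on the Per and Cry genes, whose proteins then repress CLOCK and ARNTL. A second loop runs through the REV-ERB receptors, Nr1d1 and Nr1d2, which repress Arntl and Nfil3. Factors such as DBP and TEF pass the rhythm on to metabolic genes, and meal times set the phase of the liver clock. Cholesterol and fatty acid synthesis follow feeding through the SREBP factors, and fasting lowers them. Kupffer cells are the macrophages of the liver sinusoids. Pituitary growth hormone, secreted in different patterns in males and females, sets the sex bias of many liver genes and changes with age.

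RNA of each liver was measured on 1 Affymetrix array with 22690 probe sets, and each value is a scaled fluorescence signal with no unit, whose number of arrays limits the precision. The hepatocyte markers Alb, Ttr, Apoa1, Cps1 and Tat lay between 2382 and 6661 in the 6 vehicle livers. Those of bile duct cells (Krt19, Krt7, Epcam, Sox9), T cells (Cd3e, Cd3g) and fat (Adipoq, Retn) were at most 27.8, 9.55 and 15.5. Of 4 pancreatic genes, Ctrb1 and Cpa1 were at most 7.43, while Cela2a reached 52.1 in end mouse 1 and Cela1 lay between 91.1 and 209. In the testosterone livers Ctrb1 reached 70.4 and 172 in withdrawn mice 1 and 2. Vehicle arrays correlated at 0.985 to 0.989 within a group and at 0.975 to 0.982 between the groups. The ratio of 3' to 5' actin signal, a measure of RNA length and labelling, was 1.44, 1.64 and 1.48 at the end and 1.60, 1.83 and 1.89 after withdrawal (exact permutation test, two-sided p = 0.2, where 0.1 is the smallest p that 3 against 3 allows). The pyruvate carboxylase ratio was 4.57, 7.2 and 6.4 against 9.03, 16.3 and 17.0 (p = 0.1 in the same exact test), so these groups did not overlap. In the testosterone livers the actin ratio ran the other way, from 2.03, 2.11 and 2.19 at the end to 1.82, 1.57 and 1.47. The pyruvate carboxylase ratio did so too, from 21.9, 17.4 and 17.3 to 15.3, 9.86 and 9.33. Only the actin ratio was used as a covariate below. End mouse 2 stood apart in inflammation genes, with a Saa1 signal of 5042 against 379 and 247 in the other end mice.

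Of 7217 genes with signal above the array median on at least 3 arrays, 1288 (17.8%) differed between the vehicle groups at a Benjamini-Hochberg adjusted p under 0.05 in limma, which is the threshold for every call here. In 795 of them (11%) the level was higher after withdrawal and in 493 (6.83%) it was lower, and these are the shares beside which the count of each gene list stands. The median log2 change over all genes tested was 0.056. The split depended on the scaling: centring the arrays on their medians moved that overall median to -0.045 and gave 475 higher and 710 lower. In 2538 genes (35.2%) the 3 signals of one group all lay above those of the other, 1244 of the called genes among them. The filter can be met by the 3 arrays of a single group. The shares called and without overlap therefore include genes such as Dnmt3b and Cdkn1a, which were under the array median in all 3 end mice. How far such genes raised the shares was not tested. A change of at least 2-fold was reached by 205 called genes (2.84%), 120 higher and 85 lower. Withdrawn mice 2 and 3 carried many of the calls, which numbered 625 without the former and 582 without the latter. With each array's actin ratio as a covariate 231 genes were called, 137 higher and 94 lower.

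The same interval in testosterone-treated mice gave 785 calls (10.9%), 402 higher and 383 lower. Of the 1288 genes called in vehicle livers, 972 (75.5%) changed in the same direction there, against 59.0% of all genes tested. Both contrasts called 297 genes in the same direction, which is 23.1% of the vehicle calls and 37.8% of the testosterone calls, and 20 genes in opposite directions. The difference between the 2 changes was itself called in 158 genes (2.19%). Clock genes lay at both ends of the shared changes.

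**Figure D1:**
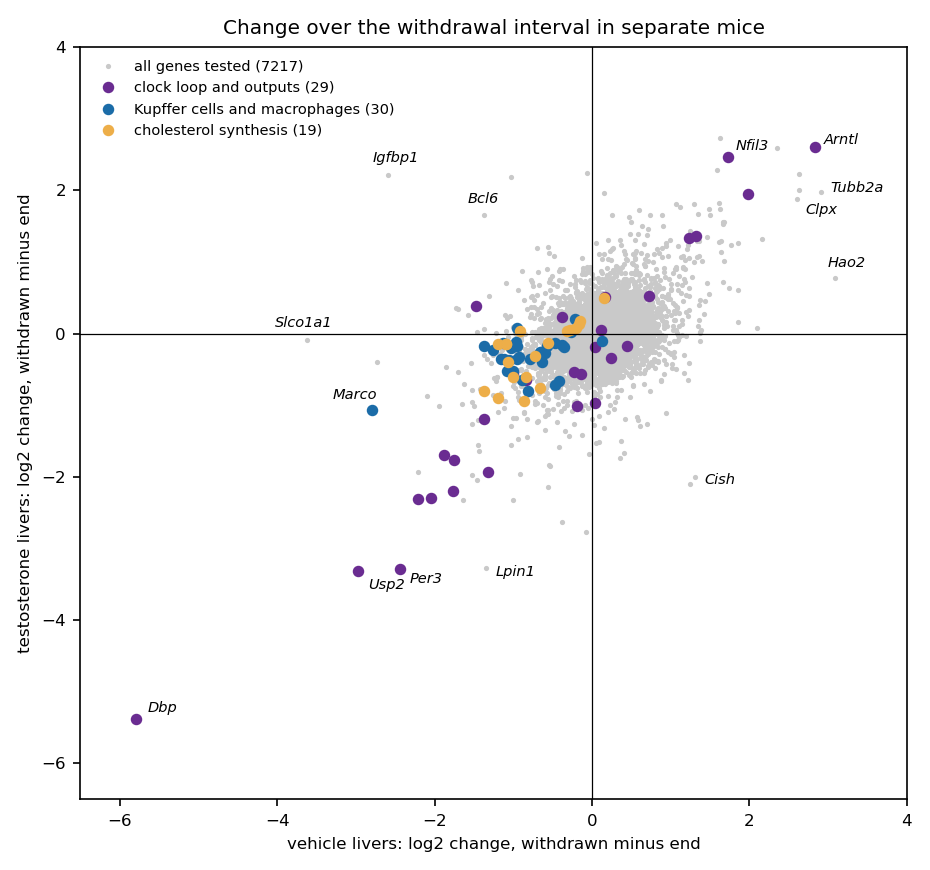
Each point is 1 of the 7217 genes, with the log2 change of the vehicle livers on the x axis and of the testosterone livers on the y axis (withdrawn minus end in both; 3 mice a group). Dbp, at -5.79 and -5.38, and Arntl, at 2.83 and 2.60, lie near the diagonal, whereas Igfbp1 and Bcl6 fell in vehicle livers and rose in testosterone livers.

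Genes of the circadian clock held some of the largest changes, most of them shared by both treatments. Of 16 listed genes of the core loop, 12 passed the filter on low signals, and 3 rose and 6 fell (against 11% and 6.83% of all genes). Of 17 tested clock outputs, 3 rose and 7 fell. Among these 29 genes, 19 were called in vehicle livers and 22 in testosterone livers, 17 in both and each of those in the same direction; for none was the difference between treatments called. Called or not, 9 of the 12 and 14 of the 17 had the same sign in both treatments. The 19 called genes had no overlap between end and withdrawn mice, which held for 1244 of the 1288 called genes overall. Among them Arntl and Cdkn1a were under the array median in all 3 end mice, and Dbp, Per1, Per3 and Nr1d1 in all 3 withdrawn mice. Such genes passed the filter through the time at which they were high, so their lack of overlap is not separate support.

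RefSeq promoters (GRCm38.p6, 250 bases before a transcript start) were found for 24 of the 29 clock genes. Of these, 4 are printed as examples, each with, in capitals, an element through which a clock factor is known to act. They show the E-box of CLOCK and ARNTL (CACGTG), the D-box of DBP, TEF and NFIL3 (TTATGTAA) and the element of the ROR and REV-ERB receptors (TAGGTCA, here on the reverse strand as TGACCTA).
Per1 E-box, chr11:69098699-69098948, plus strand: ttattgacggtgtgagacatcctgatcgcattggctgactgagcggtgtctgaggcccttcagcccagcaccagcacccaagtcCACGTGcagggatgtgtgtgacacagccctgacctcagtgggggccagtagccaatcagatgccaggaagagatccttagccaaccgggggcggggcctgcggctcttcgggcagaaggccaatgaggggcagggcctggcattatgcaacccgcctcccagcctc
Tef E-box, chr15:81802423-81802672, plus strand: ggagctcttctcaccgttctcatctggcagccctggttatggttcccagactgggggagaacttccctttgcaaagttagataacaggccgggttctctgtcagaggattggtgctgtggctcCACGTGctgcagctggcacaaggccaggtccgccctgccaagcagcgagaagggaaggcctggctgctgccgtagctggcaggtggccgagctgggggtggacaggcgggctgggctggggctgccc
Per3 D-boxes, chr4:151044666-151044915, minus strand: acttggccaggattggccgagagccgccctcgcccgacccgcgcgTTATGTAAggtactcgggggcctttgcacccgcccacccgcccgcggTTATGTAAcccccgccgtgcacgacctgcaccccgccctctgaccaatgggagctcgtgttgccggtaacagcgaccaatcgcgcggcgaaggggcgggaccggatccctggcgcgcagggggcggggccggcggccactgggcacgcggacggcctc
Nfil3 ROR element, chr13:52981040-52981289, minus strand: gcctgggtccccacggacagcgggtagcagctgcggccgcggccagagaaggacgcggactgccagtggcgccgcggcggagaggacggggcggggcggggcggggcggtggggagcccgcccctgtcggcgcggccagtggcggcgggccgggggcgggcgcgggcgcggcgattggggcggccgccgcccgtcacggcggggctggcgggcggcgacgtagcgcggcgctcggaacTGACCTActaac
Where a gene has several starts, the most upstream one with the element is shown. Both strands were searched and the motifs do not overlap each other. The E-box was found in 4 of the 24 genes (Cry1, Per1, Tef and Tspan4), and in 6.02% of all 32851 promoters. Of these genes Cry1, which is not printed, was called higher, and Per1, Tef and Tspan4 were called lower. The D-box was found in Per3 only, in 2 copies, and in 0.819% of promoters. The ROR element was found in Nfil3 only, and in 2.23% of promoters. A gene was counted if any of its starts held the element, whereas the promoters were counted singly. The counts of genes and the shares of promoters are therefore not directly comparable. A match describes the letters in this window and is not evidence of binding.

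On the activating side of the loop, Arntl, which encodes the partner of CLOCK, had signals of 14.2, 13.6 and 7.82 at the end of treatment and 106, 66.7 and 76.4 after withdrawal. The groups were far apart, with a 7.11-fold rise (log2 change 2.83 ± 0.25, SE; adjusted p = 5.36e-06). Clock rose 2.51-fold, with signals of 41.8, 52.1 and 35.6 at the end of treatment and 105, 108 and 108 after withdrawal (adjusted p = 0.000125). The 3 withdrawn mice were nearly equal. Cry1 encodes a repressor that acts late in the cycle, and its promoter also held an E-box. Its signals were 18.9, 35.4 and 24.5 at the end of treatment and 73.2, 58.5 and 50.4 after withdrawal, a 2.36-fold rise (adjusted p = 0.0179). The call of Cry1 was lost without end mouse 1, withdrawn mouse 1 or withdrawn mouse 2, with log2 changes of 1.02, 1.09 and 1.26. Cry1 had no call with the actin covariate either (log2 1.26).

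On the repressing side the period genes fell. Per1, with the E-box printed above, had signals of 26.2, 23.9 and 36.5 at the end of treatment and 1.59, 8.54 and 7.94 after withdrawal, and the value of withdrawn mouse 1 lay under the floor of 4.84 below which signals were not distinguished (log2 change -2.04 ± 0.42, adjusted p = 0.00467). Per2 was at 54.5, 68 and 53.1 at the end of treatment and 11, 29.6 and 15.4 after withdrawal, 3.4-fold lower (adjusted p = 0.00527). Per3, with 2 D-boxes, went from 62.1, 42.1 and 49.1 to 8.66, 12.5 and 7.36, 5.44-fold lower (adjusted p = 4.69e-05). In each of the 3 genes the highest withdrawn mouse was below the lowest end mouse. Cry2 fell 1.78-fold, from 66.2, 48.8 and 65.8 to 31.5, 40.4 and 29.5 (adjusted p = 0.0031). The calls of Per1 (log2 -1.74) and Cry2 (-0.76) were lost with the actin ratio as a covariate.

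Of the REV-ERB receptors, Nr1d2 had signals of 524, 427 and 531 at the end of treatment and 125, 133 and 143 after withdrawal, 3.68-fold lower with little spread in either group (log2 change -1.88 ± 0.12, adjusted p = 1.9e-07). Nr1d1 was lower too, at 42.9, 14.7 and 27.1 at the end of treatment and 11, 13.9 and 5.26 after withdrawal, and the groups came close (adjusted p = 0.0298). Its call was lost without end mouse 1, end mouse 3 or withdrawn mouse 3, with log2 changes of -1.10, -1.43 and -1.06. It was also lost with log2(signal + 16) in place of the floor (-0.73, adjusted p = 0.0518) and with the actin covariate (-0.82, adjusted p = 0.406). In testosterone livers Nr1d1 went from 30.2 ± 10.01 to 40.5 ± 18 (mean ± SD, n = 3; log2 0.39 ± 0.43, adjusted p = 0.617), and the difference between treatments was not called (adjusted p = 0.104). The other 3 tested members were not called and overlapped between the groups: Rora, an activator of Arntl, at log2 0.044 ± 0.11, and the casein kinase genes Csnk1d and Csnk1e, whose products phosphorylate PER proteins, at 0.16 ± 0.14 and 0.44 ± 0.27.

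Among the outputs, Dbp changed most of all genes named here. Its signals were 795, 515 and 664 at the end of treatment and 7.53, 15.8 and 13.4 after withdrawal, a 55.4-fold decrease (log2 change -5.79 ± 0.40, adjusted p = 4.29e-07). Tef, a related factor with an E-box printed above, fell 3.38-fold from 435, 372 and 480.3 to 115, 143 and 122 (adjusted p = 1.84e-06). Nfil3, the repressor that competes with DBP and TEF for the D-box and whose own promoter holds the ROR element, rose 3.31-fold from 26.6, 42 and 52.9 to 122, 135 and 129 (adjusted p = 0.000107). Dbp and Tef were low, and Nfil3 high, in all 3 withdrawn mice, whereas Hlf, another activator of the D-box, was not called.

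The ubiquitin protease gene Usp2 fell 7.82-fold, from 255, 227 and 211 to 28.8, 32.9 and 26.9 (log2 change -2.97 ± 0.17, adjusted p = 1.01e-07). Wee1, a kinase that holds cells before mitosis, fell 4.63-fold, from 89.3, 88.3 and 96.8 to 17.4, 22.9 and 19.3 (adjusted p = 0.000296). Cdkn1a, an inhibitor of the cell cycle that REV-ERB represses, rose 3.95-fold, from 7.0, 7.11 and 9.44 to 29.7, 38.2 and 25.7 (adjusted p = 0.000415). Both are clock-driven brakes of the cell cycle, and they moved in opposite directions. Nampt, the rate-limiting enzyme of NAD salvage, fell 2.59-fold from 351, 463 and 389.5 to 199.9, 144 and 126 (adjusted p = 9.48e-05), and the uridine phosphorylase gene Upp2 fell 2.5-fold from 1658, 2026 and 1776 to 963, 628 and 634 (adjusted p = 0.000191). Tspan4 fell 2-fold (adjusted p = 0.00214), and Tars, a threonyl-tRNA synthetase, rose 1.65-fold (adjusted p = 0.000745).

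The outputs that were not called were Hlf (log2 0.24 ± 0.15), Tsc22d3 (0.11 ± 0.18), Klf10 (0.034 ± 0.21), Klf9 (-0.14 ± 0.14), Bhlhe40 (-0.19 ± 0.21), Klf13 (-0.22 ± 0.16) and Noct (-0.38 ± 0.23). The other probe set of Klf13 was called lower (log2 -1.21). The testosterone livers gave nearly the same levels for the main genes. Dbp went there from 797 ± 69 to 23.8 ± 20.1 (mean ± SD, n = 3), Arntl from 14.2 ± 3.3 to 84.8 ± 6.76, Nr1d2 from 534 ± 55.2 to 164 ± 16 and Usp2 from 188 ± 33.6 to 18.9 ± 4.14. With the actin ratio as a covariate 15 of the 29 clock genes were called, and Dbp (log2 -5.48), Arntl (2.98), Per3 (-2.16) and Nr1d2 (-1.80) were among them. 

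**Figure D2:**
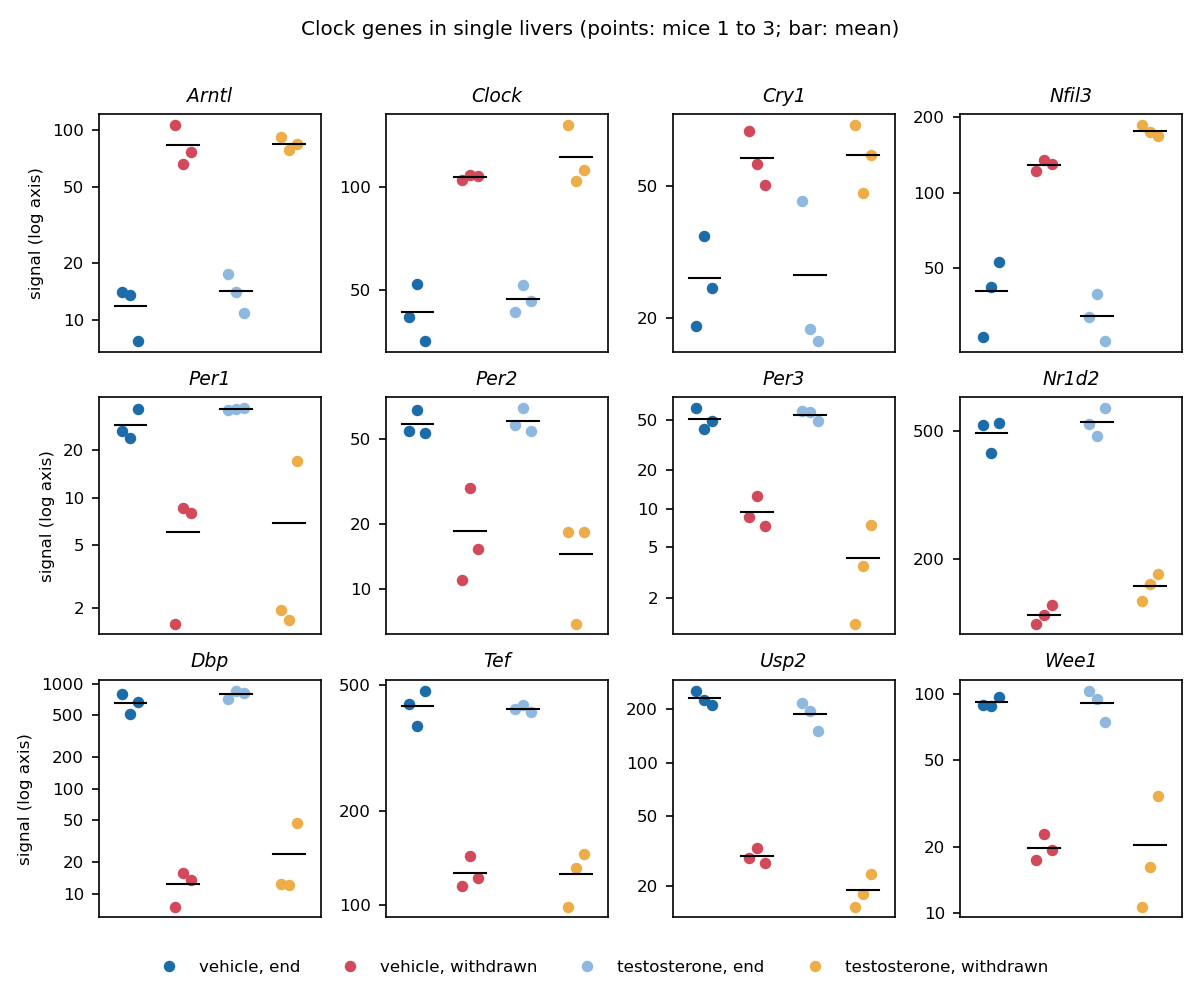
Signals of 12 clock genes in single livers (log axes, no unit; 3 mice in each of the 4 groups, with the arithmetic mean as a bar). In both treatments Arntl, Clock, Cry1 and Nfil3 were higher after withdrawal, and Per1, Per2, Per3, Nr1d2, Dbp, Tef, Usp2 and Wee1 lower; the vehicle groups overlap in none of them.

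Genes of cholesterol synthesis were lower after withdrawal. Of 25 listed genes 19 were tested, 11 fell and none rose, with a median log2 change of -0.84 beside 0.056 over all genes. The called genes span the pathway from mevalonate kinase to the late sterol steps (Mvk, Idi1, Fdps, Fdft1, Sqle, Lss, Cyp51, Msmo1, Nsdhl and Hsd17b7), with the sterol carrier gene Stard4. In testosterone livers 5 of the 19 were called lower and 1 higher, with a median of -0.15. With the actin ratio as a covariate 5 were called lower.

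Sqle, whose product adds oxygen to squalene, had signals of 999, 681 and 899 at the end of treatment and 344, 329 and 315 after withdrawal, 2.58-fold lower (log2 change -1.37 ± 0.19, adjusted p = 0.000432). Lss, the enzyme that closes the sterol rings, was at 513, 229.8 and 421 at the end of treatment and 145, 210.4 and 135 after withdrawal, 2.29-fold lower (adjusted p = 0.0046), with end mouse 2 close to withdrawn mouse 2. Nsdhl, a demethylation enzyme, fell 2.14-fold from 1097, 977 and 861 to 446, 467 and 454 (adjusted p = 0.00106). In Sqle and Nsdhl the withdrawn mice lay closer together than the end mice. Mvk fell 2.29-fold, from 186, 108 and 135 to 59.2, 66.4 and 57.9 (adjusted p = 0.00184). Hsd17b7 fell 2.13-fold, from 284, 209 and 219 to 128, 107 and 98.1 (adjusted p = 0.000419), whereas in testosterone livers it went from 129 ± 20.9 to 116 ± 12.7 (difference between treatments: adjusted p = 0.0415). The end mice of the testosterone group were thus already near the level of the withdrawn vehicle mice. The calls of Lss (log2 -0.90) and Mvk (-0.82) were lost with the actin ratio as a covariate.

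Of 25 tested genes of fatty acid and triglyceride synthesis 3 rose and 5 fell, against 11% and 6.83% of all genes. Insig2, which holds SREBP precursors in the endoplasmic reticulum and is induced by fasting in liver, had signals of 281, 280.4 and 280.5 at the end of treatment and 856, 929 and 812 after withdrawal, 3.08-fold higher (log2 change 1.62 ± 0.11, adjusted p = 4.29e-07). The 3 end mice differed by less than 1 signal unit in it, and testosterone livers rose by as much (276 ± 21.8 to 927 ± 154, mean ± SD, n = 3). Thrsp, a lipogenic gene that carbohydrate feeding induces, fell 2.88-fold from 3174, 3254 and 3445 to 1362, 1374 and 800.0 (adjusted p = 0.000236). Lpin1, a phosphatidate phosphatase, fell 2.54-fold from 350.1, 193 and 271 to 96.3, 124 and 93.5 (adjusted p = 0.0044). Srebf1, which encodes SREBP1, fell 1.53-fold from 759, 725 and 803 to 662, 487 and 379 (adjusted p = 0.0191); this call was lost without end mouse 3 or withdrawn mouse 2 or 3, with log2 changes of -0.58, -0.60 and -0.42. The number of genes that fell was 3, 2, 3 and 2 without end mouse 1, end mouse 3, withdrawn mouse 2 and withdrawn mouse 3. The calls of Lpin1 (log2 -0.93) and Srebf1 (-0.34) were lost with the actin covariate.

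Genes that follow feeding and fasting did not move as a block. Of 12 tested genes induced by insulin or feeding, 2 rose and 5 fell (median -0.37; 3 fell without end mouse 1 or 3 or withdrawn mouse 1 or 3), and of 19 genes of gluconeogenesis and fasting, 1 rose and 4 fell. Ppp1r3c, which targets protein phosphatase 1 to glycogen, had signals of 138, 232 and 167 at the end of treatment and 1281, 968 and 1017 after withdrawal, 6.18-fold higher (log2 change 2.63 ± 0.20, adjusted p = 1.44e-06). Gys2, the liver glycogen synthase, fell 1.69-fold from 358, 415 and 377 to 234, 212 and 233 (adjusted p = 0.000191). Irs1, a substrate of the insulin receptor, rose 2.32-fold from 126, 136 and 224 to 304, 406 and 386 (adjusted p = 0.00137). Slc37a4, the glucose-6-phosphate transporter of the last step of glucose output, fell 2.04-fold from 1127, 1179 and 1036 to 510.1, 604 and 529 (adjusted p = 6.99e-05). Irs1 had no call with the actin covariate (log2 0.99).

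The main enzymes of gluconeogenesis showed no call. Pck1 was at 1843, 1518 and 1491 at the end of treatment and 1212, 1603 and 1332 after withdrawal (log2 -0.23 ± 0.14, adjusted p = 0.281), and G6pc at 446, 894 and 407 at the end of treatment and 746, 804 and 585 after withdrawal (log2 0.37 ± 0.31, adjusted p = 0.429), with overlapping groups in both. Igfbp1, a secreted binding protein of IGFs that insulin suppresses, fell 6-fold, from 368, 211 and 393 to 39, 68.2 and 53 (adjusted p = 0.00928). Angptl8, a hepatokine that feeding induces, rose 3.19-fold from 137, 368 and 128 to 782, 452 and 592 (adjusted p = 0.00612). Igfbp1, suppressed by insulin, and Angptl8, induced by it, thus moved in opposite directions. Both calls were lost with the actin covariate, at log2 -2.04 and 1.64.

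Fatty acid oxidation genes and other targets of PPARA, the receptor active in fasting, rose in 9 of 30 cases and fell in 1 (median 0.19). Pdk4, a kinase that closes pyruvate dehydrogenase, rose 3.91-fold from 12.5, 9.62 and 18 to 52.8, 54.8 and 44.8 (log2 change 1.97 ± 0.35, adjusted p = 0.00189), and in testosterone livers from 15.3 ± 5.75 to 63.3 ± 32.1 (mean ± SD, n = 3). Acot1, an acyl-CoA thioesterase, rose 2.57-fold from 27.8, 31.3 and 47.7 to 71.7, 88.8 and 111 (adjusted p = 0.00441). Ppara itself was at log2 -0.32 ± 0.15 (adjusted p = 0.156). Cyp4a14, Cd36 and Ehhadh also rose, by log2 0.94, 0.86 and 0.53, each without a call when withdrawn mouse 2 was left out (0.83, 0.69 and 0.43). Cyp4a14 also lost its call without end mouse 2 (0.69) or withdrawn mouse 3 (0.82), and Cd36 without withdrawn mouse 3 (0.82). The number of genes that rose was 5, 3 and 4 without end mouse 2, withdrawn mouse 2 and withdrawn mouse 3. Calls lost with the actin covariate were those of Acot1 (log2 1.14), Cyp4a14 (0.93), Cd36 (0.93) and Ehhadh (0.48). The 2 other probe sets of Cd36 were not called (log2 0.73 and 0.79).

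**Figure D3:**
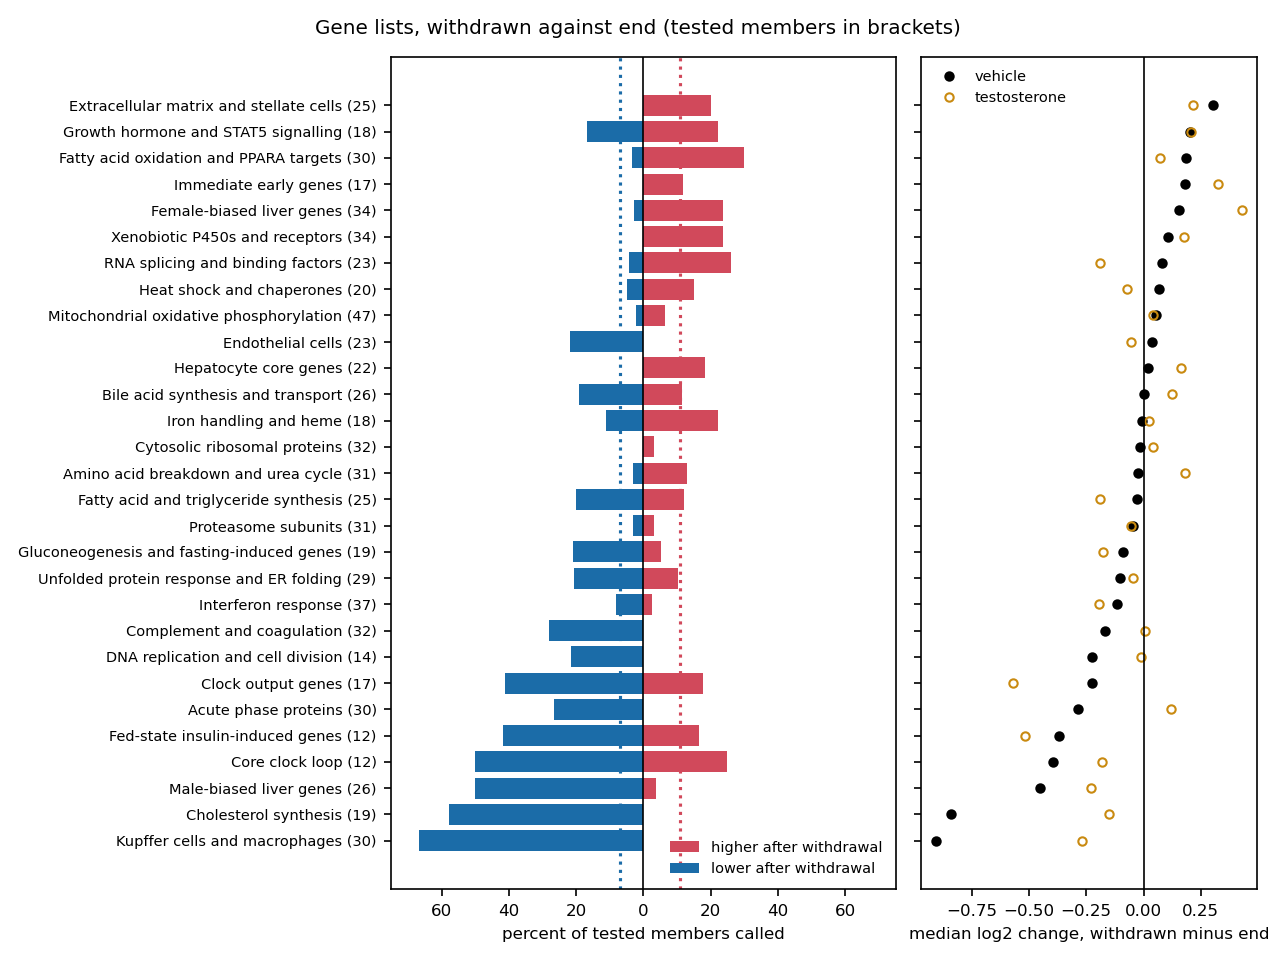
Left, the percent of tested members of each gene list called higher (right of 0) or lower (left of 0) in vehicle livers after withdrawal, for lists with at least 10 tested members; dotted lines mark 11% and 6.83%, the shares over all genes. Right, the median log2 change of each list in vehicle (filled) and testosterone livers (open). Kupffer cell, cholesterol, male-biased and clock genes have the largest shares of lower calls.

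Kupffer cell and macrophage genes were lower after withdrawal. Of 30 tested, 20 fell and none rose, with a median log2 change of -0.91; in testosterone livers 3 fell, with a median of -0.27, and the difference between treatments was called for none of the 30 genes. Their summed signal was 12187, 10810 and 8677 in the end mice and 8454, 5485 and 6485 in the withdrawn mice, against 5256 to 7136 in the 6 testosterone livers. The lowest end mouse lay just above the highest withdrawn mouse. In RNA of whole liver, fewer cells of a type and less RNA per cell cannot be told apart. The count was 11, 11 and 13 without end mouse 1, withdrawn mouse 2 and withdrawn mouse 3, and 3 with the actin ratio as a covariate, where the median was -0.67.

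Marco, a scavenger receptor, had signals of 193, 71.9 and 73.9 at the end of treatment and 19.3, 6.82 and 23.2 after withdrawal, 6.94-fold lower (log2 change -2.79 ± 0.54, adjusted p = 0.00327). The Kupffer cell lectin Clec4f was at 621, 448 and 409 at the end of treatment and 356, 188 and 238 after withdrawal, 1.93-fold lower (adjusted p = 0.0046). Cd5l, a secreted protein of tissue macrophages, fell 2.12-fold from 966, 832 and 625 to 524, 268 and 376 (adjusted p = 0.00277). In these genes withdrawn mouse 1 or 3 was nearest to the end mice and withdrawn mouse 2 lowest. C1qb, a subunit of complement C1q, which macrophages make, fell 2.4-fold from 569, 523 and 349.9 to 293, 133 and 194 (adjusted p = 0.00208). Vsig4, a complement receptor, fell 2.19-fold from 680.0, 624 and 469 to 437, 171 and 254 (adjusted p = 0.00665), and Lyz2, a lysozyme, fell 2.23-fold from 674, 618 and 438 to 367, 209 and 215 (adjusted p = 0.00148). Adgre1, which encodes F4/80, was not called, at 182, 117 and 84.9 at the end of treatment and 115, 59.98 and 70.6 after withdrawal (log2 -0.63 ± 0.26, adjusted p = 0.106). Of these, Clec4f (log2 -0.71), Cd5l (-0.96), C1qb (-0.97) and Vsig4 (-0.79) had no call with the actin covariate. Of 2 other probe sets of C1qb, 1 was called lower (-0.80) and 1 was not called (-0.60).

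**Figure D4:**
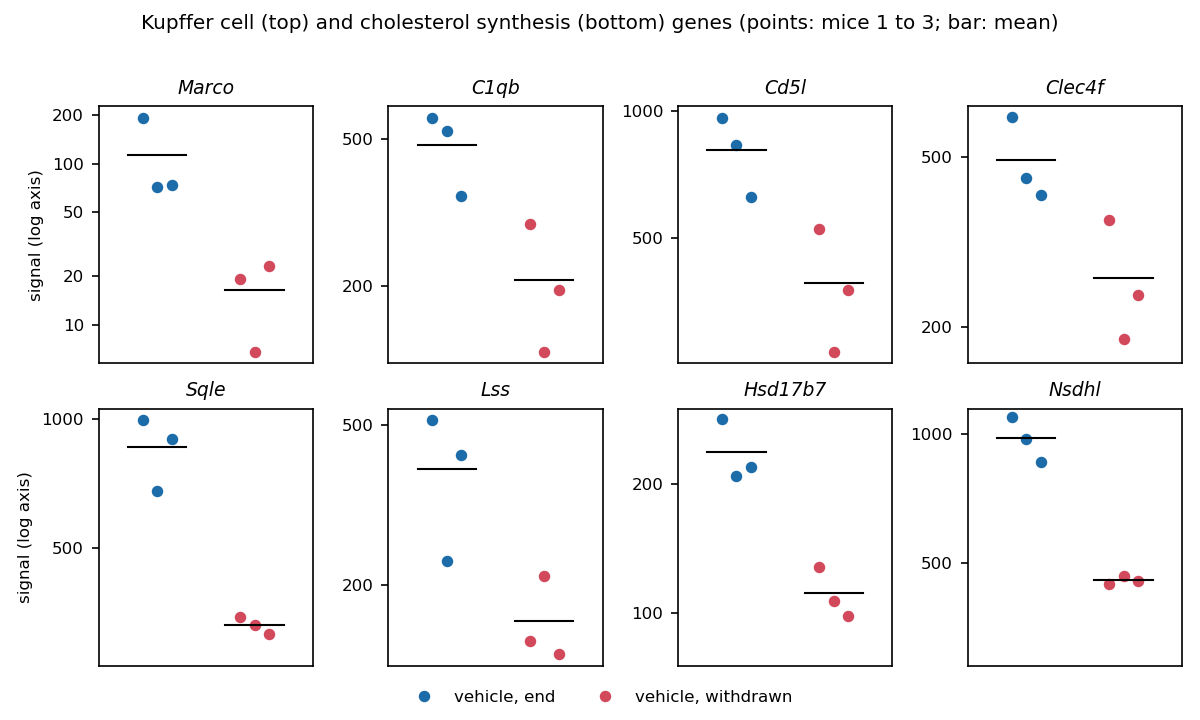
Signals of 4 Kupffer cell genes (top) and 4 genes of cholesterol synthesis (bottom) in single vehicle livers (log axes, no unit; points are 3 end mice on the left and 3 withdrawn mice on the right, bars are arithmetic means). The groups do not overlap; the withdrawn mice are spread in the Kupffer cell genes, with mouse 2 lowest, and close together in Sqle and Nsdhl.

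Genes of other cells around the hepatocytes held calls in a minority. Of 23 endothelial genes 5 fell and none rose (2, 1 and 1 without end mouse 1, withdrawn mouse 2 and withdrawn mouse 3). The Fc receptor gene Fcgr2b, made by sinusoidal endothelium, fell 1.57-fold from 503, 548 and 504 to 393, 280.4 and 326 (adjusted p = 0.0016). Of 25 genes of matrix and stellate cells 5 rose and none fell, with a median of 0.30 (3 without withdrawn mouse 2). Pdgfrb, the receptor of stellate cells and pericytes for PDGF, rose 2.3-fold from 24.1, 17.2 and 19.2 to 44, 40.2 and 54.3 (adjusted p = 0.00293), and the collagen gene Col14a1 rose 1.42-fold from 142, 144 and 118 to 198, 198 and 178 (adjusted p = 0.00952). Col3a1 was not called (log2 0.47 ± 0.16, adjusted p = 0.0566), and Col1a1 did not pass the filter. The other probe set of Col14a1 was not called (log2 0.37). With the actin covariate 2 matrix genes were called higher, and Fcgr2b (log2 -0.52) and Col14a1 (0.52) had no call.

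Of 37 interferon response genes 1 rose and 3 fell, against 11% and 6.83% of all genes, and the proteasome subunit gene Psmb10 fell 1.35-fold (adjusted p = 0.0123); the number that fell was 6 without end mouse 2 and 1 without end mouse 3, withdrawn mouse 2 or withdrawn mouse 3. Il1b, a cytokine of activated macrophages and neutrophils, fell 2.48-fold from 45.2, 36.7 and 43.1 to 21.6, 12.3 and 17.7 (adjusted p = 0.00361), and in testosterone livers it went from 18.8 ± 6.43 to 26.1 ± 1.53 (difference between treatments: adjusted p = 0.0206). Ighm, the heavy chain of immunoglobulin M, was higher at 54.5, 65.8 and 81.3 at the end of treatment and 104, 116 and 278 after withdrawal (adjusted p = 0.0174), with withdrawn mouse 3 far above the others and no call without that mouse (log2 0.73) or without end mouse 1 (1.04). Cd74, the invariant chain of antigen presentation, overlapped between the groups (log2 0.31 ± 0.35, adjusted p = 0.576). Of 2 other probe sets of Ighm, 1 was called higher (log2 1.02), and the mean of all its probe sets was not called (0.38). The calls of Psmb10 (log2 -0.36), Il1b (-1.09) and Ighm (0.54) were lost with the actin covariate.

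Acute phase genes, made by hepatocytes in inflammation, fell in 8 of 30 cases with a median of -0.29, and end mouse 2 bore on this. Saa1, a serum amyloid, was at 379, 5042 and 247 at the end of treatment and 357, 193 and 329 after withdrawal (log2 -1.46 ± 0.76, adjusted p = 0.198). Lcn2, lipocalin 2, was at 102, 2008 and 56.4 at the end of treatment and 34.2, 20.8 and 55.3 after withdrawal (log2 -2.74 ± 0.90, adjusted p = 0.0487), and without end mouse 2 its log2 change was -1.16 with no call; it was -3.74 without end mouse 3, and the call was also lost without withdrawn mouse 1, 2 or 3 (-2.74, -2.38 and -3.09). The neutrophil gene S100a8 was also highest in end mouse 2, at 131 against 13.2 to 29.0 in the other 5. Without that mouse 4 acute phase genes fell, 1 rose and the median was -0.13, and without withdrawn mouse 2 or 3 the number that fell was 3 and 5. Serpina3n, a protease inhibitor, kept its call without any 1 vehicle mouse, with signals of 801, 1246 and 601 at the end of treatment and 453, 422 and 418 after withdrawal (adjusted p = 0.00268). The metallothionein Mt1, which binds zinc, was at 1537, 3114 and 778 at the end of treatment and 1871, 2042 and 2773 after withdrawal, with overlapping groups (log2 0.50 ± 0.37, adjusted p = 0.375). The actin covariate also ended the call of Lcn2, at -3.92.

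Complement and coagulation genes fell in 9 of 32 cases and rose in none (median -0.17), with 5 and 3 that fell without end mouse 2 and withdrawn mouse 2. C8a and C8b encode chains of the complement pore. C8b fell 2.9-fold from 816, 889 and 621 to 375, 178 and 278 (log2 change -1.53 ± 0.21, adjusted p = 0.000351), and C8a fell 2.59-fold from 1129, 1939 and 1119.9 to 715, 321 and 613 (adjusted p = 0.00174). F11, coagulation factor XI, fell 2.14-fold from 343, 323 and 387 to 195, 146 and 153 (adjusted p = 0.000132). These 3 genes kept their calls without any 1 vehicle mouse.

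Among genes with a sex bias in liver, most calls were of male-biased genes that fell and female-biased genes that rose. Of 26 tested male-biased genes 13 fell and 1 rose, with a median of -0.45; of 34 tested female-biased genes 8 rose and 1 fell, with a median of 0.15. Without end mouse 2 the median of the female-biased genes was -0.0057, and without withdrawn mouse 2 the number that rose was 5. With the actin ratio as a covariate 3 male-biased genes fell and 3 female-biased genes rose. In testosterone livers 13 female-biased genes rose and none fell over the same interval, while 2 male-biased genes rose and 2 fell.

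Slco1a1, an anion transporter of the male liver, had signals of 194, 319 and 271 at the end of treatment and 106, 1.92 and 17.5 after withdrawal, and the value of withdrawn mouse 2 lay under the floor (log2 change -3.62 ± 0.69, adjusted p = 0.00308). The withdrawn mice varied widely, and the change was -2.57 without withdrawn mouse 2 and -4.80 without withdrawn mouse 1, called in both cases, and -2.72 with no call with the actin covariate (adjusted p = 0.0959). Bcl6, a repressor of female-biased genes, fell 2.59-fold from 48.9, 59.7 and 62.2 to 22.6, 27.1 and 17 (adjusted p = 0.0023). Cyp7b1, a male-biased hydroxylase of oxysterols, fell 1.8-fold from 500.3, 745 and 570.0 to 436, 239.7 and 346 (adjusted p = 0.00877). Hsd3b5, a steroid dehydrogenase of the male liver, was at 2.52, 43.3 and 18.9 at the end of treatment and 0.889, 0.411 and 0.6 after withdrawal, under the floor in the 3 withdrawn mice and in end mouse 1. Its lower level (adjusted p = 0.0328) was not called without end mouse 2 (log2 -0.98), end mouse 3 (-1.58) or any 1 withdrawn mouse (-1.71 each), and was -2.56 without end mouse 1. Elovl3, also male-biased, overlapped between the vehicle groups, at 42.3, 27.1 and 28.9 at the end of treatment and 24.4, 32.6 and 36.1 after withdrawal. The calls of Cyp7b1 (log2 -0.77) and Hsd3b5 (-2.12) were lost with the actin covariate.

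On the female side, Hao2, an oxidase of hydroxy acids, had signals of 29, 48.3 and 59.9 at the end of treatment and 339.9, 431 and 354 after withdrawal, 8.51-fold higher and the largest called rise with separate groups (log2 change 3.09 ± 0.35, adjusted p = 7.17e-05). Vldlr, a lipoprotein receptor, rose 3.33-fold from 40.3, 54.8 and 88.6 to 159, 218 and 209.7 (adjusted p = 0.00108). Cyp2b10, a target of the xenobiotic receptor CAR, rose 2.8-fold from 108, 119 and 117 to 361, 366 and 246 (adjusted p = 0.00413). The lowest withdrawn mouse was well above the highest end mouse in all 3. Slc22a29, an organic anion transporter, rose 2.37-fold (adjusted p = 0.0117) and lost its call without withdrawn mouse 2 (log2 1.12). Cux2, the female-biased repressor of male-biased genes, was not called (log2 0.15 ± 0.32, adjusted p = 0.768). Slc22a29 also had no call with the actin covariate (1.06).

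**Figure D5:**
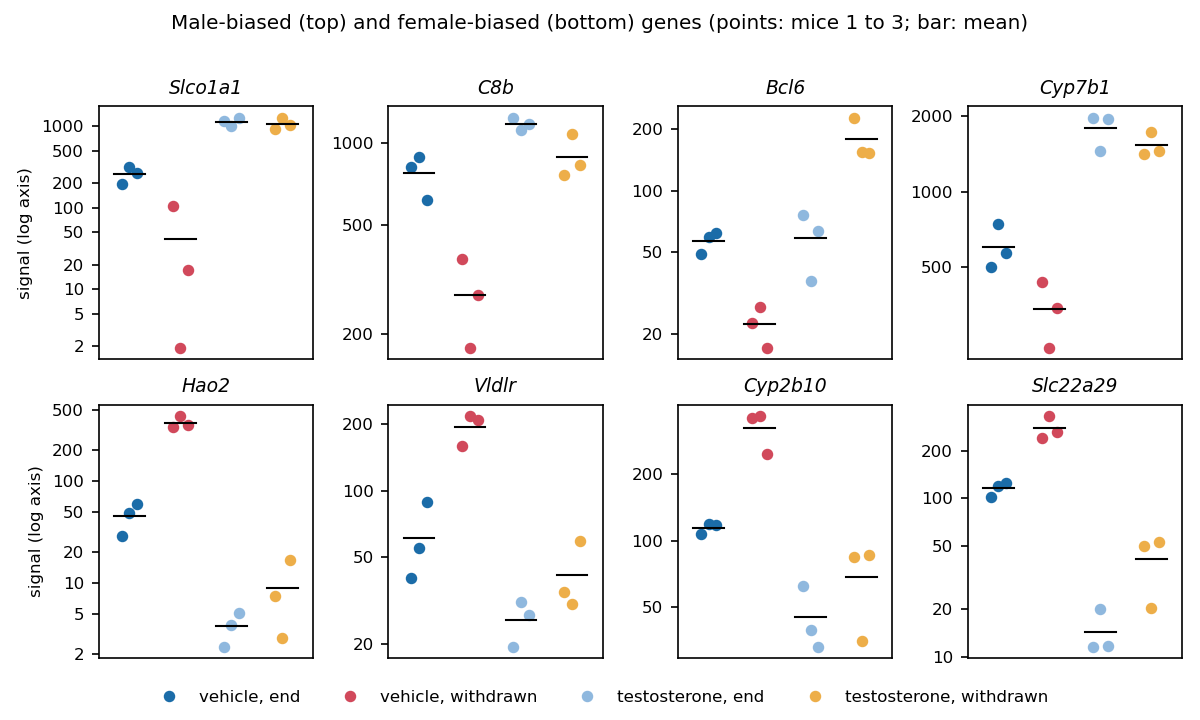
Signals of 4 male-biased (top) and 4 female-biased (bottom) liver genes in single livers (log axes, no unit; 3 mice in each of 4 groups, bars are arithmetic means). In vehicle livers the top genes were lower and the bottom genes higher after withdrawal with no overlap; testosterone livers had the highest male-biased levels of the 4 groups in Slco1a1, C8b and Cyp7b1.

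Of 18 tested genes of growth hormone signalling, which drives this sex bias, 4 rose and 3 fell (2 rose without withdrawn mouse 2). Cish, a feedback inhibitor that STAT5 induces, rose 2.49-fold from 44.5, 46.9 and 29.6 to 115, 71.1 and 116 (adjusted p = 0.000993), whereas in testosterone livers it fell from 132 ± 16.3 to 33 ± 5.3 (difference between treatments: adjusted p = 4.81e-05). Stat5b rose 1.74-fold from 80.4, 48.5 and 70.3 to 104, 126 and 111 (adjusted p = 0.00586), while its other probe set was at log2 0.006 and the mean of both was not called (0.40, adjusted p = 0.098). The receptor gene Ghr (log2 -0.065 ± 0.094, adjusted p = 0.673) and Igf1, the circulating mediator of growth hormone (-0.15 ± 0.078, adjusted p = 0.196), were not called and overlapped. Of 2 other probe sets of Ghr, 1 was called lower (log2 -0.72) and 1 was not called (0.042). Among 14 tested genes of DNA replication and cell division 3 fell and none rose (1 without end mouse 1 or withdrawn mouse 3). Tk1, thymidine kinase, fell 1.94-fold from 164, 195 and 247 to 122, 85.6 and 104 (adjusted p = 0.00238); Mki67 did not pass the filter. Tk1 had no call with the actin covariate (log2 -0.81).

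Drug metabolism genes rose in 8 of 34 cases and fell in none, with a median of 0.11 (4 without withdrawn mouse 2). Gsta2, a glutathione transferase, rose 2.34-fold from 419.6, 443 and 542 to 1094, 1076 and 1104 (adjusted p = 0.000162). Of 26 genes of bile acid synthesis and transport 3 rose and 5 fell, against 11% and 6.83% of all genes. Cyp8b1, the enzyme that sets the share of cholic acid, rose 1.85-fold from 564, 359 and 358 to 667, 733 and 939.9 (adjusted p = 0.00494). Hsd3b7, an early enzyme of the pathway, rose 1.59-fold (adjusted p = 0.00114), and Abcg5, a sterol exporter, fell 1.83-fold from 640.1, 544 and 718 to 346, 368 and 319 (adjusted p = 0.000425). Cyp7a1, which encodes the first and limiting step from cholesterol to bile acids, was not called at 1983, 2253 and 1985 at the end of treatment and 1513, 1879 and 1468 after withdrawal (log2 -0.36 ± 0.20, adjusted p = 0.226). Its other probe set was called lower (log2 -1.08).

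Stress genes changed singly, and the counts of their lists stand beside 11% higher and 6.83% lower over all genes. Herpud1, part of the degradation of misfolded proteins at the endoplasmic reticulum, fell 2.12-fold from 1099, 1095 and 1269 to 545, 544 and 536 (log2 change -1.09 ± 0.13, adjusted p = 0.000107), while 3 of its 29 tested list members rose and 6 fell (the number that fell was 3, 2, 1 and 3 without end mouse 1, end mouse 2, withdrawn mouse 2 and withdrawn mouse 3). Atf4, the factor of the integrated stress response, rose 1.43-fold (adjusted p = 0.00768). Of 20 chaperone genes 3 rose and 1 fell (5 rose without withdrawn mouse 1), and Bag3, a partner of HSP70, rose 3.06-fold from 26.7, 57.5 and 45.2 to 91.9, 136 and 159 (adjusted p = 0.000572). Of 17 immediate early genes 2 rose, Ccn1 by 2.33-fold (adjusted p = 0.00148). Atf4 had no call with the actin covariate (log2 0.58).

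Iron and heme genes rose in 4 of 18 cases and fell in 2. Tfrc, the transferrin receptor, fell 2.41-fold from 215, 278 and 304 to 101, 129.9 and 99.3 (adjusted p = 0.000684), Cpox, an enzyme of heme synthesis, rose 2.03-fold from 115, 105 and 147 to 160.0, 299 and 311 (adjusted p = 0.00794), and hepcidin, Hamp, was not called (log2 0.11 ± 0.071). Among hepatocyte core genes 4 of 22 rose (2 without withdrawn mouse 2). Foxa2, a pioneer factor of liver, rose 2.59-fold from 84.8, 63 and 72.6 to 184, 177 and 205 (log2 change 1.37 ± 0.13, adjusted p = 1.6e-05), and its relative Foxa1 rose 1.65-fold (adjusted p = 0.0046). Alb, albumin, was not called, at log2 0.0043 ± 0.079. Splicing factors rose in 6 of 23 cases and fell in 1, against 11% and 6.83% of all genes; 2 to 3 rose without end mouse 1, 2 or 3 or withdrawn mouse 2 or 3. With the actin covariate 0 splicing factors were called, and Cpox (log2 0.60) and Foxa1 (0.50) had no call. The other probe set of Cpox was not called (0.51).

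Subunits of large housekeeping complexes are given beside the 17.8% called over all genes, with no test of the difference. Oxidative phosphorylation had 3 higher and 1 lower of 47 (at most 1 higher without end mouse 1 or 2 or any 1 withdrawn mouse), ribosomal proteins 1 higher of 32, and the proteasome 1 higher and 1 lower of 31. The proteasome gene Psmd11 rose 1.44-fold from 995, 926 and 979 to 1372, 1447 and 1350.0 (adjusted p = 0.000366).

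Outside these lists, some of the largest changes were among the most uniform. Clpx, a subunit of a mitochondrial protease, had signals of 145, 125 and 152 at the end of treatment and 834, 927 and 808 after withdrawal, 6.1-fold higher (log2 change 2.61 ± 0.11, adjusted p = 3.6e-09). Tubb2a, a beta tubulin, rose 7.55-fold from 77.1, 132 and 94.7 to 811, 724 and 706 (adjusted p = 1.9e-07). Chka, choline kinase, rose 5.1-fold from 36, 37 and 44.7 to 232, 182 and 188 (adjusted p = 1.66e-06). These genes rose in testosterone livers as well, by log2 1.87, 1.97 and 2.58. Serpinb1a, an inhibitor of neutrophil proteases, rose 6.19-fold from 23.9, 48.8 and 54 to 219, 292 and 232 (adjusted p = 0.000193), and Coq8a, needed for coenzyme Q synthesis, rose 3.4-fold from 317, 232 and 274 to 892, 1016 and 873 (adjusted p = 4.29e-07).

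Gsn, gelsolin, which severs actin filaments, rose 3.62-fold from 41.4, 38.4 and 36.8 to 153, 160.4 and 113 (adjusted p = 0.00308), and Denn2b rose 3.62-fold from 33.4, 36.3 and 42 to 122, 142 and 140.2 (adjusted p = 1.84e-06). The DNA methyltransferase gene Dnmt3b was at 3.65, 11.4 and 4.5 at the end of treatment and 27.4, 30.1 and 29 after withdrawal, with end mice 1 and 3 under the floor (log2 change 2.16 ± 0.37, adjusted p = 0.00148). Of the decreases, Narf fell 3.07-fold from 168, 137 and 128 to 50.6, 45.1 and 44.3 (adjusted p = 5.88e-06). Gnat1, known as a transducin subunit of the retina, fell 4.62-fold from 52.8, 46.6 and 59 to 14.1, 9.5 and 11 (adjusted p = 0.000242). Slc2a5, the fructose transporter, fell 3.11-fold from 36.5, 20.5 and 28.5 to 7.12, 8.36 and 11.9 (adjusted p = 0.0102), and Clec2h, a lectin-like gene, fell 4.26-fold from 58.2, 21.8 and 19.2 to 10.6, 4.99 and 5.94 (adjusted p = 0.00327). The calls of Gsn (log2 1.64), Slc2a5 (-1.51) and Clec2h (-1.58) were lost with the actin covariate. Slc2a5 also lost its call with a lower floor, at the 10th percentile of signals (-1.64). Of 2 other probe sets of Clec2h, 1 was called lower (log2 -1.88) and 1 was not called (-1.04).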

How the data were processed

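Liver RNA of 12 mice, 3 in each of 4 groups, was hybridised to 1 array each. What the authors deposited is 1 intensity on a linear scale for each probe set of each array; per the submitters' processing notes the authors used GCOS and MAS5, with versions not given. The values show a 2% trimmed mean of 100.05 on every array, so the authors had scaled each array before deposit. Control probe sets (64) were left out, and 20380 probe sets with 1 gene symbol in the platform annotation were used, 691 with several symbols and 1555 with none being left out. Signals under the 25th percentile of all signals, 4.84, were raised to it and log2 was taken. The probe set of highest mean log2 signal stood for a gene, giving 12393 genes, of which 7217 with signal above the array median on at least 3 of 12 arrays were tested. Means of the 4 groups were fitted over 12 arrays in limma 3.58.1 (R 4.3.3; lmFit, eBayes with a variance trend; two-sided; Benjamini-Hochberg over 7217 genes). SE is that of the log2 change. A fold is the ratio of geometric means of floored signals, a lower bound where a mouse of the lower group is under the floor, and none is given where the bound is not firm. Replicates are single mice, per the labels.

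Genes were named by a rule: called genes whose vehicle groups do not overlap, 20 with the largest rise and 20 with the largest fall; up to 5 called members of each of 39 lists; all tested clock genes; and a fixed set. The rule gives 184 genes, 157 of them called (78 higher, 79 lower), and 93 of these kept the call without any 1 vehicle mouse; the text gives values mainly for the latter. Some genes of the fixed set are not reported here. The comparison, the lists and the named genes were chosen with earlier results of these data known, and no set test was run. Some genes, such as C8b, Thrsp and Igfbp1, stand in more than 1 list and are counted in each, so the list counts are not independent. Lists not described in the text held few tested or called genes: amino acid breakdown (4 higher and 1 lower of 31), antigen-presenting cells (1 lower of 7), T and NK cells (0 of 1), B cells (2 higher and 1 lower of 6), neutrophils (1 lower of 3), bile duct and fetal liver (1 lower of 5), blood (1 lower of 6), fat (2 higher of 5), exocrine pancreas (1 lower of 2), other tissue (0 of 3) and metallothioneins (0 of 6). Promoters are RefSeq's, matched by symbol.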

Additional observations from a re-analysis of the deposited data

Results flagged for a closer look

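In 19 of the named genes the change over the withdrawal interval differed between vehicle and testosterone livers, by a limma interaction test adjusted over all 7217 genes (158 called, 2.19%). The values below are the vehicle change minus the testosterone change, on the log2 scale. No explanation was tested.

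Of these, 4 genes moved in opposite directions with a call in each treatment. Igfbp1 differed by -4.80 (vehicle -2.59, testosterone 2.21; adjusted p = 0.0116), with signals of 224, 98.4 and 85.5 at the end and 526, 186 and 1915 after withdrawal of testosterone. Cish differed by 3.32 (vehicle 1.31, testosterone -2.01; adjusted p = 4.81e-05). Bcl6 differed by -3.02 (vehicle -1.37, testosterone 1.65; adjusted p = 0.000477). Herpud1 differed by -1.79 (vehicle -1.09, testosterone 0.70; adjusted p = 0.000105). Cish and Bcl6 are both in the list of growth hormone signalling, and their changes had opposite signs in each treatment.

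Elovl3 differed by -2.30: it rose in testosterone livers, from 176, 289.9 and 335 to 889, 1670.2 and 1199, and was not called in vehicle livers. Cyp7a1 (-1.26) and Igf1 (-0.53) were likewise called higher in testosterone livers and not called in vehicle livers; the other probe set of Cyp7a1 was called lower in vehicle livers (-1.08). Lpin1 differed by 1.93 and Cebpb by 0.79, both with the larger fall in testosterone livers. Narf (-0.91) fell more, and Clpx (0.73) rose more, in vehicle livers.

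The other genes were called in vehicle livers and not in testosterone livers: Hao2 (2.31), Cpox (1.51), Foxa2 (1.47) and Hnrnpa2b1 (1.11) rose in vehicle livers, and Il1b (-1.83), Apcs (-1.24), Hsd17b7 (-0.94) and Pcna (-0.64) fell there. The vehicle calls of Cebpb, Apcs, Hnrnpa2b1 and Pcna were lost without end mouse 2 (log2 -0.37, -0.41, 0.52 and -0.30) and without withdrawn mouse 2 (-0.46, -0.59, 0.53 and -0.34). Without end mouse 1 the calls of Cebpb, Hnrnpa2b1 and Pcna were lost too (-0.44, 0.49 and -0.33). Cebpb and Hnrnpa2b1 also lost them without withdrawn mouse 1 (-0.38 and 0.57), and Hnrnpa2b1 and Pcna without withdrawn mouse 3 (0.58 and -0.31). With the actin ratio as a covariate the difference was called in 1 gene of all tested.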

How the results depend on the processing

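The 1288 calls and their directions were recomputed under each alternative. All 1288 genes kept their direction under quantile normalization, median centring, a lower floor, log2(signal + 16) and the actin covariate. With all probe sets of a gene averaged, 1266 of the 1288 kept it. No named gene with a call reversed in any alternative. With no filter, no variance trend or the replicate block the log2 changes are those of the main fit, so no direction could change there. The counts were 1259 with quantile normalization, 1185 with median centring (475 higher), 1320 with log2(signal + 16), 1113 with all probe sets averaged and 977 on the 6 vehicle arrays alone. With no filter, 12393 genes were tested and 792 called, 497 higher and 295 lower; 615 had the same sign in testosterone livers, the difference between treatments was called in 37, and 9 Kupffer cell genes fell, 4 female-biased genes rose and 7 male-biased genes fell. With the actin ratio as a covariate 231 were called (137 higher, 94 lower), 194 with the same sign in testosterone livers, 1 difference between treatments, and the numbers that fell were 3 in the core clock loop, 5 in cholesterol synthesis, 3 in Kupffer cells and 3 in male-biased genes, while 3 female-biased genes rose. Differences between treatments numbered 72 with no variance trend, and a 2-fold minimum left 205 calls. The cause of these shifts was not tested. Leaving out 1 vehicle mouse gave 582 to 1309 calls (348 to 788 higher, 234 to 521 lower), 478 to 955 with the same sign in testosterone livers and 26 to 299 differences between treatments; 11 to 24 Kupffer cell genes fell and 5 to 8 female-biased genes rose. Without end mouse 1, 294 genes were lower. Deviations from the group mean correlated at 0.0056, -0.19 and -0.0077 between vehicle mice with the same replicate number. Between differently numbered mice they correlated at -0.15 to 0.18. With 3 mice a group these values cannot show whether the numbers mark a pairing. With the replicate block 1021 genes were called, 1000 of them shared with the main analysis, and 55 differences between treatments. Of the 157 named calls, 94 were lost with the actin covariate and 61 with no filter; Per2, Cry1, Nr1d1, Srebf1, Igfbp1, Angptl8, Vsig4, Cyp7b1, Slc22a29, Slc2a5 and Cpox are among the latter. Genes near the floor have only bounds on their change.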

Other observations

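The 297 genes called in both treatments with the same direction, 167 higher and 130 lower, hold 17 clock genes. The genes below were chosen from this set after their values were seen. G0s2, an inhibitor of triglyceride breakdown, had vehicle signals of 193, 664 and 309 at the end of treatment and 999.6, 964 and 1127 after withdrawal (log2 1.59), and in testosterone livers it rose by 2.28. Axin2, a target of Wnt signalling, rose by log2 1.64 and 1.29, and Tbx3, a factor of the pericentral liver zone, by 1.34 and 1.66. The water channel gene Aqp8 rose by 1.33 and 1.29. Aacs, which makes acetoacetyl-CoA for lipid synthesis, fell in both (log2 -1.43 and -1.64).

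Of the 20 genes called in both treatments in opposite directions, also chosen after their values were seen, Phlda1 had vehicle signals of 243, 189.5 and 223 at the end of treatment and 598, 381 and 605 after withdrawal (log2 1.25) and fell in testosterone livers (log2 -2.11). Wsb1 rose in vehicle livers (0.94) and fell in testosterone livers (-1.11). Efna1, an ephrin ligand, and Cyp17a1, a female-biased steroid hydroxylase, fell in vehicle livers (-0.69 and -0.77) and rose in testosterone livers (1.20 and 0.51).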
